A study of Mus musculus with 6 samples.

Results

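Interferon-stimulated genes are the genes that cells switch on when an interferon reaches its receptor. A list of 42 of them was followed in quiescent muscle stem cells (qMuSCs) of the mouse, the resting stem cells that lie along muscle fibers and rebuild them after injury. Members were taken from the list by symbol and kept when they had 10 or more counts summed over the 6 mice of the study. In all, 41 of the 42 met this rule, out of 31053 genes counted, and Mx2 was not analysed here. Of these, 39 passed the expression minimum for testing, a mean of normalized counts above 10, along with 11633 genes in all. Oas1a and Mx1 were under it and are described by their counts.

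RNA was sequenced from the qMuSCs of 6 mice, the WT mice named c124, c129 and c130 (n = 3) and the cD2KO mice named fl125, fl126 and fl128 (n = 3), with 1 library for each. The WT mice were Pax7nGFP/+;Pax7+/+;Dio2Fl/Fl and the cD2KO mice Pax7nGFP/+;Pax7-CreERT2/+;Dio2Fl/Fl, so all of them carried the floxed Dio2 alleles and the GFP reporter, while Pax7-CreERT2, a Cre recombinase made in Pax7-expressing cells and activated by tamoxifen, was present in the cD2KO mice alone. All mice were 3 to 4 months old, received tamoxifen and had resting muscles, and cells were sorted from the hindlimb by the GFP reporter. Dio2 encodes type 2 deiodinase (D2), the enzyme that activates thyroid hormone, and Cre was not matched between the groups, so an effect of the Cre allele cannot be told apart from that of Dio2.

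Type I interferons act through the receptor pair Ifnar1 and Ifnar2 and the kinases Jak1 and Tyk2, which activate a complex that includes Stat2 and Irf9. That complex binds the interferon-stimulated response element (ISRE) in front of its target genes, whereas interferon gamma acts through Ifngr1 and Ifngr2 and the gamma-activated site (GAS). The products sense viral nucleic acids, block viral replication, conjugate the ubiquitin-like protein Isg15, or attack vacuoles of intracellular pathogens. Many of these genes are also expressed at a basal level without infection.

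The promoter sequences of RefSeq (GRCm38.p6, the same build as the mm10 alignment) held 33 of the 42 members, and the ISRE core, spelled GAAANNGAAA on either strand, was found in the 250 bases before the start of 13 of them (39.4%). Over the 27025 genes of the same table the share was 3.46%. The GAS core, spelled TTCNNNGAA, was found in 8 of the 33 (24.2%) against 8.13% of all genes. Among members lower in cD2KO, which are described below, 7 of 13 with a promoter held the ISRE core, and among tested members that were not called 5 of 19 did. These are matches of letters and describe the list, whose members were named for their response to interferon, and no test was run on them. The windows of the 7 members that were lower in cD2KO and held the ISRE core are shown first, then those of 3 genes with the same core that were not called. The core is in capitals, overlapping or neighbouring cores are shown in 1 window, every sequence runs 5′ to 3′ in the direction of the gene, and a core on the opposite strand reads TTTC in place of GAAA.
Isg15, chr4:156200865-156200906, minus strand: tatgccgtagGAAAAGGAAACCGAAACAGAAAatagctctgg
Bst2, chr8:71537577-71537612, minus strand: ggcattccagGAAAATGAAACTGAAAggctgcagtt
Irgm1, chr11:48871425-48871460, minus strand: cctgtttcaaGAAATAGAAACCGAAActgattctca
Gbp3, chr3:142559989-142560024, plus strand: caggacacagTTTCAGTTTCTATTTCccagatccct
Gbp7, chr3:142530273-142530302, plus strand: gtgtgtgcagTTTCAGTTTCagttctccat
Trim30a, chr7:104465210-104465239, minus strand: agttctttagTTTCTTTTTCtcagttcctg
Ifit3, first core, chr19:34583363-34583392, plus strand: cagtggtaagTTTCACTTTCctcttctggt
Ifit3, second core, chr19:34583397-34583426, plus strand: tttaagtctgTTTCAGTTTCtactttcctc
Ifit1, not called, chr19:34640775-34640823, plus strand: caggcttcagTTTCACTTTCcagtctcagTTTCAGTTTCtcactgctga
Rsad2, not called, chr12:26456553-26456582, minus strand: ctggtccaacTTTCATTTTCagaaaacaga
Igtp, not called, chr11:58199512-58199541, plus strand: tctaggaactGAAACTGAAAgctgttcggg
Isg15 held 3 overlapping cores, and Bst2, Irgm1 and Gbp3 held a pair of overlapping cores each. The core thus stood in front of genes that were lower and of genes that were not.

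**Figure D1:**
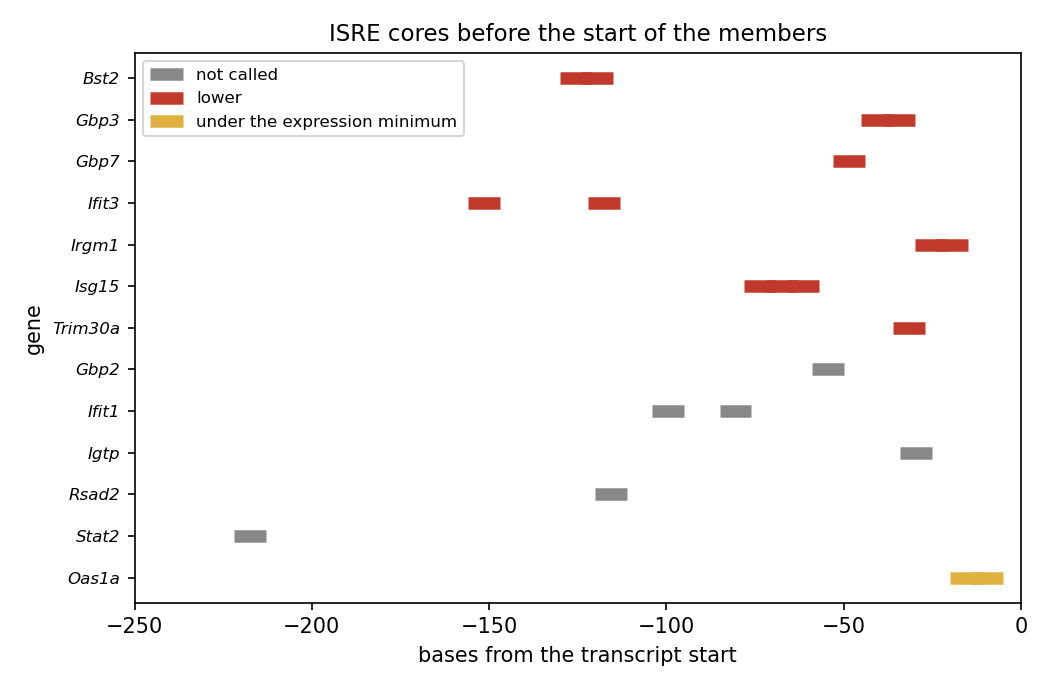
Position of each ISRE core before the transcript start (x axis, bases from the start, which is at 0) in the 13 members that hold one (y axis), with each bar drawn over the bases of the core. The 7 members lower in cD2KO are in red, 5 tested members that were not called in grey and Oas1a, under the expression minimum, in yellow, and every core lies within 156 bases of the start apart from that of Stat2, which ends 213 bases before it.

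Libraries held 2184073 to 3897787 counts, so 3 counts, the limit that a count of 0 allows, stand for 0.773 to 1.37 CPM (counts scaled to a library of 1000000, with TMM factors), which covers counting error only. Dio2 itself measured 5.41, 1.86 and 3.48 CPM in the WT mice and 6.83, 1.72 and 0.316 CPM in the cD2KO mice, from 21, 5 and 10 counts against 15, 5 and 1. The groups overlap, and fl125, labelled cD2KO, had the highest value of the 6, against its label, at counts too few to check any label. Values of cD2KO below therefore rest on the genotype in the labels, also for the library labelled fl125. Pax7, the marker of the sort, was present in every mouse (213 to 434 CPM in WT and 316 to 691 CPM in cD2KO), and so was Myf5 (28.9 to 36.0 CPM and 34.7 to 59.7 CPM). Markers of other cell types were present as well, and in those of immune cells fl125 and c129 stood apart. Summed CPM of 30 immune markers were 5094, 10418 and 6376 in the WT mice and 317, 3192 and 3594 in the cD2KO mice, so that fl125 held 9.33% of the mean of the other cD2KO mice and c129 182% of the mean of the other WT mice. Counts over the list, and single members that moved by over 1.5 times or lost the call, are therefore also given without c129 or fl125.

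Most interferon-stimulated genes lay lower in cD2KO than in WT and none was called higher. At an unadjusted p under 0.05 in edgeR's quasi-likelihood test, the line the study drew, 14 of the 39 tested members were lower (35.9%, against 6.62% of all genes tested) and 0 were higher (against 5.34%). The fitted log2 fold change was below 0 for 36 of 39 members (92.3%), whereas 6038 of the 11633 genes tested (51.9%) were below 0. Its median over the members was -0.75, with a range of -2.04 to 0.38, and the median over all genes was -0.02. All 3 cD2KO mice were below all 3 WT mice in CPM for 13 of 39 members (33.3%, against 10% of all genes), and no member had all 3 above (against 8.05%). Adjusted over all genes tested by Benjamini-Hochberg, the p of the 14 ran from 0.107 to 0.395, and 0 of 39 were under 0.05 or under 0.1 (0.49% of all genes tested were lower at an adjusted p under 0.1). Without WT mouse c129 the count of lower members was 5 (12.8%, against 3.51% of all genes, with 4.36% higher). Without cD2KO mouse fl125 it was 11 (28.2%, against 7.44%, with 8.03% higher). With both left out it was 6 (15.4%, against 6.37%), 1 member (Rsad2) was higher (against 8.39% of all genes), and the median was -0.15. In these 3 fits more genes were higher than lower over all genes tested, 976 against 741 with both mice left out, the reverse of the fit of all mice (621 against 770).

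**Figure D2:**
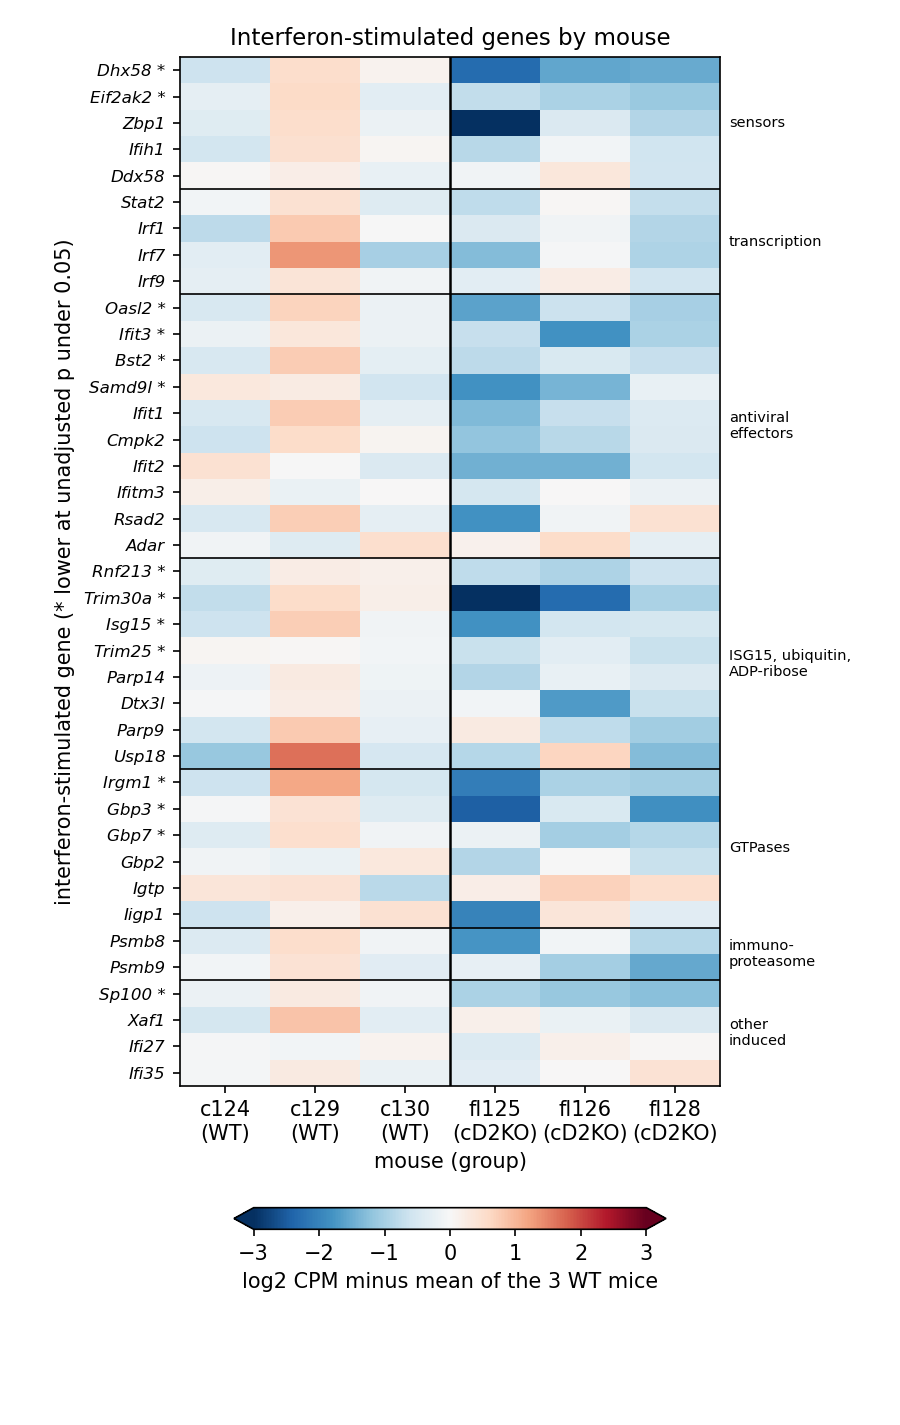
Log2 CPM of each tested member minus its mean over the 3 WT mice (colour, values beyond -3 or 3 drawn at the end of the scale) for each mouse (columns) and gene (rows, by role and then by p), with an asterisk on the 14 members lower at an unadjusted p under 0.05. The WT mouse c129 is the highest of the 6 in 28 of 39 rows and the cD2KO mouse fl125 the lowest in 24.

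The plot of members by mouse shows that the list was not shifted evenly. The mean log2 CPM of the tested members was 4.58, 5.33 and 4.71 in c124, c129 and c130 and 3.83, 4.38 and 4.21 in fl125, fl126 and fl128, and these did not overlap, although c124 and fl126 lay close to each other. Highest of all mice in 28 members was c129, and lowest in 24 was fl125. In bulk RNA of sorted cells, fewer cells of a type and less RNA per cell cannot be told apart, and this holds for each value that follows. Values are given in the order c124, c129 and c130 for WT and fl125, fl126 and fl128 for cD2KO. The counts of members called in each role below stand beside 6.62% of all genes tested lower and 5.34% higher. The share of all genes with all cD2KO below all WT mice was 10%.

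Among the sensors of viral RNA and DNA, 2 of 5 were lower in cD2KO, and all 5 had fold changes below 0. Dhx58 (chr11:100694884-100704271), the RNA helicase LGP2 that modulates signalling by its relatives Ddx58 and Ifih1, measured 5.92, 13.7 and 10.1 CPM in WT and 1.37, 2.75 and 2.84 CPM in cD2KO. All cD2KO mice lay below all WT mice (log2 fold change -2.04, SE 0.60, adjusted p = 0.167), from 3, 8 and 9 counts against 23, 37 and 29. Eif2ak2 (chr17:78852564-78882573), the kinase PKR that halts translation on binding double-stranded RNA, measured 25.2, 46.4 and 24.7 CPM in WT and 18.2, 15.5 and 13.9 CPM in cD2KO. The groups were separate here too, and fl125 was the highest of the cD2KO mice (-1.02, SE 0.33, adjusted p = 0.206, and -0.64 and no longer called without c129). Zbp1, a sensor of Z-form nucleic acids, had the smallest p among the sensors that were not called (-1.21, SE 0.59, adjusted p = 0.453). Its CPM of 12.4, 23.8 and 14.3 in WT all exceeded the 0.911, 11.7 and 8.53 in cD2KO, and fl125, with 2 counts, held 9.01% of the mean of the other cD2KO mice. Without fl125 the fold change of Zbp1 was -0.69. Values of Ifih1 and Ddx58, the receptors MDA5 and RIG-I, overlapped between groups, with log2 fold changes of -0.53 (SE 0.35) and -0.08 (SE 0.34).

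No transcription factor of the list passed the test. Stat2, Irf1, Irf7 and Irf9 had log2 fold changes of -0.99 to -0.22, and the groups overlapped in all 4. Stat2, a subunit of the complex that binds the ISRE, had the smallest p of them, with 48.2, 70.2 and 39.0 CPM in WT and 29.6, 52.3 and 30.9 CPM in cD2KO (-0.47, SE 0.29, adjusted p = 0.566). Irf7, the factor that amplifies production of type I interferon, was the most variable of the 4, with 23.9, 75.7 and 14.6 CPM in WT against 11.8, 29.2 and 15.5 CPM in cD2KO. Its WT mean rested on c129, which had 393% of the mean of the other WT mice, and the fold change moved from -0.99 to -0.0076 without it.

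Of the antiviral effectors, 4 of 10 tested were lower, and 9 of 10 had fold changes below 0. Oasl2 (chr5:114896936-114912234), a relative of the oligoadenylate synthetases that activate RNase L, measured 28.3, 63.5 and 35.5 CPM in WT and 12.8, 25.5 and 19.6 CPM in cD2KO. No cD2KO mouse reached the lowest WT mouse (-1.12, SE 0.35, adjusted p = 0.195, and -0.69 and no longer called without c129). Ifit3 (chr19:34583531-34588731), a partner of Ifit1 in binding viral RNA, measured 18.5, 26.7 and 18.4 CPM in WT and 12.8, 5.50 and 10.4 CPM in cD2KO. The groups were again separate, and fl125 was here the highest cD2KO mouse (-1.16, SE 0.38, adjusted p = 0.221). For Bst2 (chr8:71534255-71537456), tetherin, which holds budding virions at the cell surface, CPM of 84.2, 201 and 95.7 in WT faced 68.3, 85.6 and 72.3 in cD2KO. Here fl126 exceeded c124, and the difference was the smallest of the 4 effectors called (-0.75, SE 0.30, adjusted p = 0.356). It was no longer called without c129 (-0.23), fl125 (-0.64) or fl128 (-0.72). Samd9l (chr6:3372257-3399572), an inhibitor of translation in infected cells, also overlapped, with 26.3, 24.9 and 13.9 CPM in WT and 5.46, 7.57 and 17.7 CPM in cD2KO (-1.06, SE 0.44, adjusted p = 0.367). It was called only with all mice or without c130 or fl128, and was -0.93 without c129, -0.74 without fl125 and -1.72 without fl128.

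Ifit1, the sensor of viral RNA caps, had the smallest p among effectors that were not called (-0.88, SE 0.42, adjusted p = 0.434), with 12.9, 31.2 and 15.0 CPM in WT and 6.83, 11.01 and 13.6 CPM in cD2KO. Log2 fold changes of the other 5 ran from -1.34 (Ifit2) to 0.13 (Adar, the RNA editing enzyme). Ifit2 was low in all mice, with 27, 13 and 10 counts in WT and 3, 4 and 10 in cD2KO. Ifitm3, which hinders viral fusion, had 1099, 849 and 987 CPM in WT and 674, 981 and 864 CPM in cD2KO (-0.22, SE 0.21, adjusted p = 0.746). Rsad2 (viperin) spread widely inside cD2KO, from 17.8 CPM in fl125 to 59.2 in fl126 and 88.7 in fl128, against 46.1, 108 and 53.3 CPM in WT. Its fold change of -0.30 turned to 0.20 without c129 and 0.15 without fl125, none of them called. Of the genes under the expression minimum, Oas1a had 4, 6 and 2 counts in WT and 0, 2 and 1 in cD2KO, and Mx1 had 1, 26 and 5 against 2, 1 and 0. Apart from Mx1 in c129 these are a few counts per mouse, and no fold change was computed.

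**Figure D3:**
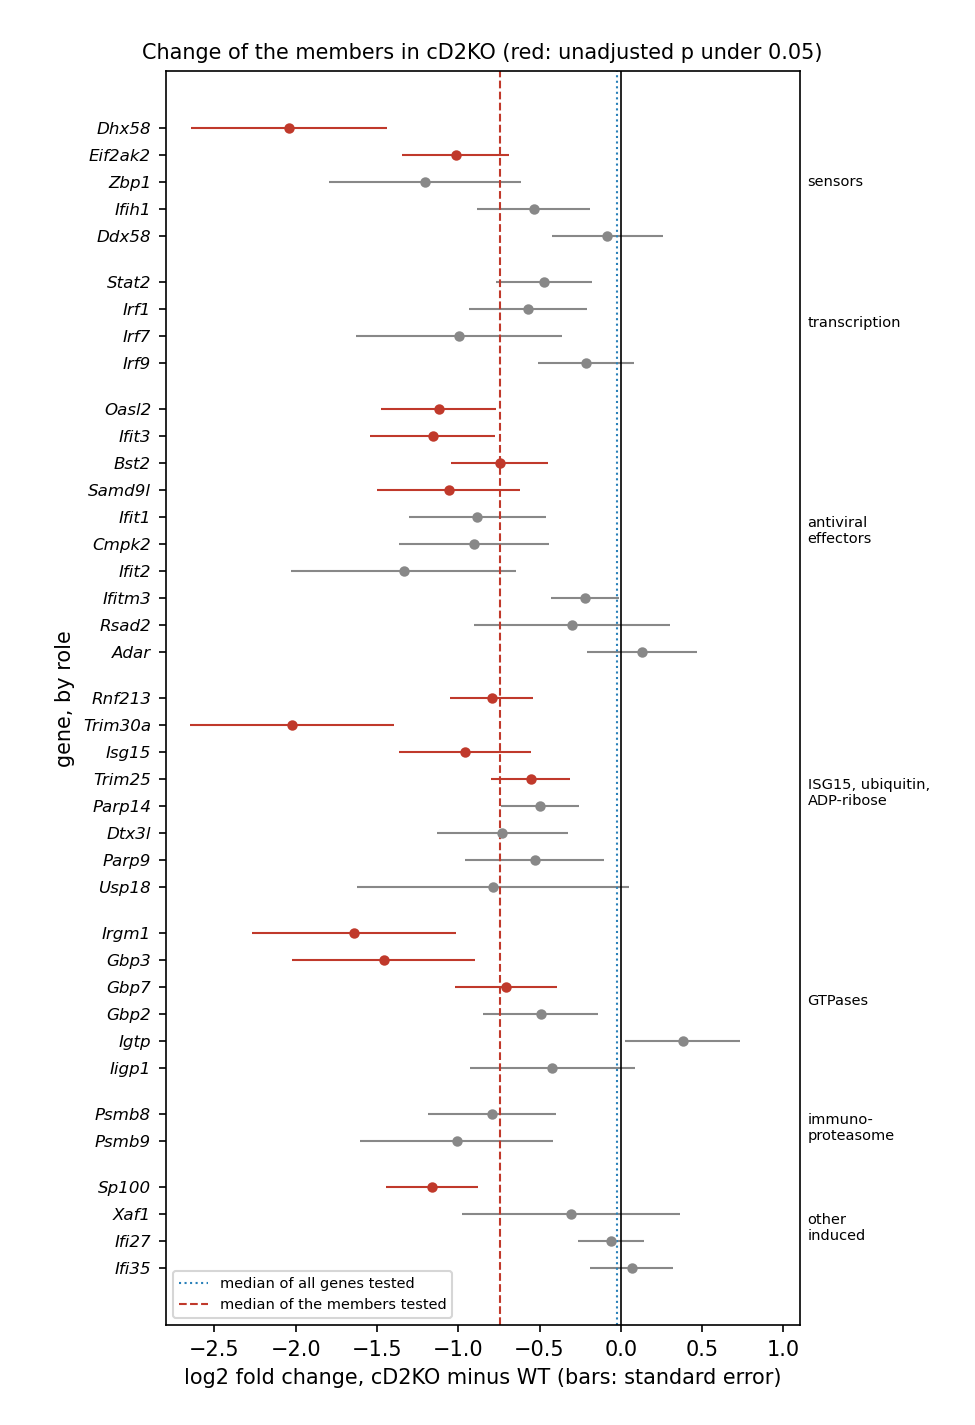
Log2 fold change of each tested member, cD2KO minus WT (x axis, bars show 1 standard error), by role (y axis), with red points for the 14 members with an unadjusted p under 0.05 and grey for the other 25. Of the 39 points 36 lie left of 0, the dashed line marks the members' median of -0.75 and the dotted line that of all genes tested, -0.02.

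In the group of the Isg15 system, ubiquitin ligases and ADP-ribosylating enzymes, 4 of 8 were lower and all 8 had fold changes below 0. Isg15 (chr4:156199424-156200818), the ubiquitin-like modifier itself, measured 24.7, 64.6 and 35.5 CPM in WT and 10.5, 26.1 and 26.5 CPM in cD2KO. It overlapped, since fl126 and fl128 exceeded c124 (-0.96, SE 0.41, adjusted p = 0.379), and the call was lost without c129 (-0.47), fl125 (-0.61) or c130 (-1.02). Trim30a (chr7:104409025-104465193), a ligase that restrains Toll-like receptor signalling, measured 22.7, 56.8 and 43.5 CPM in WT and 2.28, 7.22 and 19.6 CPM in cD2KO. The fold change (-2.02, SE 0.63, adjusted p = 0.248) was close to that of Dhx58, with separate groups. It was -3.04 without fl128 and not called without fl126 (-1.84), and fl125 held 17.0% of the mean of the other cD2KO mice. Rnf213 (chr11:119393100-119487418), a very large ligase that coats intracellular bacteria with ubiquitin, varied little within groups, with 37.1, 55.7 and 53.3 CPM in WT and 27.8, 25.1 and 30.9 CPM in cD2KO (-0.79, SE 0.26, adjusted p = 0.204). The values of fl125 were inside the range of the other cD2KO mice. Trim25 (chr11:88999376-89020293), the ligase known for activating Ddx58, measured 44.8, 44.6 and 40.7 CPM against 26.9, 34.4 and 27.2 CPM, again separate (-0.56, SE 0.24, adjusted p = 0.389), and it kept the call without fl126 alone, with fold changes of -0.57 to -0.46 in the 5 fits that lost it.

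Parp14, an ADP-ribosyltransferase, had the smallest p of the 4 members of this group that were not called, and its cD2KO mice all lay below the WT mice (59.2, 80.6 and 60.9 CPM against 35.5, 56.7 and 49.3 CPM, log2 fold change -0.50, SE 0.24, adjusted p = 0.439). Dtx3l and Parp9, which form a complex of a ubiquitin ligase and an ADP-ribosyltransferase, lie next to each other on opposite strands with overlapping exons, so reads in the 458 shared bases cannot be assigned where strand was not used. Their log2 fold changes were -0.73 (SE 0.40) and -0.53 (SE 0.43), and fl125 was the highest cD2KO mouse in both. Usp18, the protease that removes Isg15 and dampens the type I receptor, was set apart by c129 with 29.0 CPM, against 3.61 and 5.92 CPM in the other WT mice and 4.55, 14.1 and 3.16 CPM in cD2KO. Its fold change of -0.79 was 0.65 without c129, and neither was called.

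Of the interferon-inducible GTPases, which act on vacuoles that hold pathogens, 3 of 6 were lower and 5 of 6 had fold changes below 0. Irgm1 (chr11:48861968-48871683), a regulator of the family, measured 6.18, 23.0 and 6.61 CPM in WT and 1.82, 4.82 and 4.42 CPM in cD2KO. The groups were separate, but c129 held 360% of the mean of the other WT mice (-1.64, SE 0.63, adjusted p = 0.321). It was -0.74 without c129 and -1.31 without fl125, both not called. Gbp3 (chr3:142560026-142573209), a guanylate binding protein, measured 12.6, 17.8 and 9.75 CPM against 1.82, 9.29 and 3.16 CPM, also separate (-1.46, SE 0.56, adjusted p = 0.323), and the call was lost without c129 (-1.18), fl125 (-1.07) or fl128 (-1.22), while it was -2.37 without fl126. Its neighbour Gbp7 (chr3:142530342-142550149) measured 32.2, 60.1 and 39.3 CPM against 37.3, 20.6 and 23.1 CPM. For Gbp7 the groups overlapped because fl125 was above c124 (-0.71, SE 0.31, adjusted p = 0.395), and it was not called without c129 (-0.39), c130 (-0.75), fl126 (-0.54) or fl128 (-0.60). Gbp2 had the smallest p of the GTPases not called (-0.49, SE 0.36, adjusted p = 0.643), and Iigp1 overlapped between groups (-0.42, SE 0.51). Igtp had the highest fold change of the list, with 23.7, 24.9 and 10.1 CPM in WT and 20.9, 29.6 and 25.9 CPM in cD2KO (0.38, SE 0.35, adjusted p = 0.737), and shares 162 exonic bases with Irgm2 on its strand.

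Psmb8 and Psmb9, subunits that replace their constitutive counterparts in the immunoproteasome and so change the peptides shown to T cells, were not called. Psmb8 had the smaller p, with 56.7, 108 and 70.3 CPM in WT and 21.9, 71.5 and 41.4 CPM in cD2KO (-0.79, SE 0.39, adjusted p = 0.480). Psmb9, at 7.21, 10.8 and 5.92 CPM against 6.38, 3.44 and 2.21 CPM, had a fold change of -1.01 (SE 0.59), and its lowest mouse was fl128 rather than fl125.

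Of the other 4 members, Sp100 was lower and had the smallest p of the whole list. Sp100 (chr1:85649988-85709998), a protein of nuclear bodies that represses incoming viral genomes, measured 31.7, 43.4 and 33.4 CPM in WT and 18.2, 15.8 and 14.5 CPM in cD2KO. The WT minimum exceeded the cD2KO maximum with a wide gap, and the mean fell from 36.2 ± 6.35 to 16.2 ± 1.87 CPM (SD, n = 3 in each group), a log2 fold change of -1.16, SE 0.28 (adjusted p = 0.107). In Sp100 fl125 was the highest cD2KO mouse. Xaf1, a protein of cell death that had the smallest p of the remaining members, overlapped between groups (-0.31, SE 0.67, adjusted p = 0.913) at 9 to 21 counts per mouse. In Xaf1 c129 held 273% of the mean of the other WT mice. Its fold change turned to 0.35 without c129, and neither was called. Ifi27 and Ifi35 had fold changes of -0.06 (SE 0.20) and 0.07 (SE 0.25), with Ifi27 at 160 to 182 CPM in WT and 127 to 186 CPM in cD2KO.

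**Figure D4:**
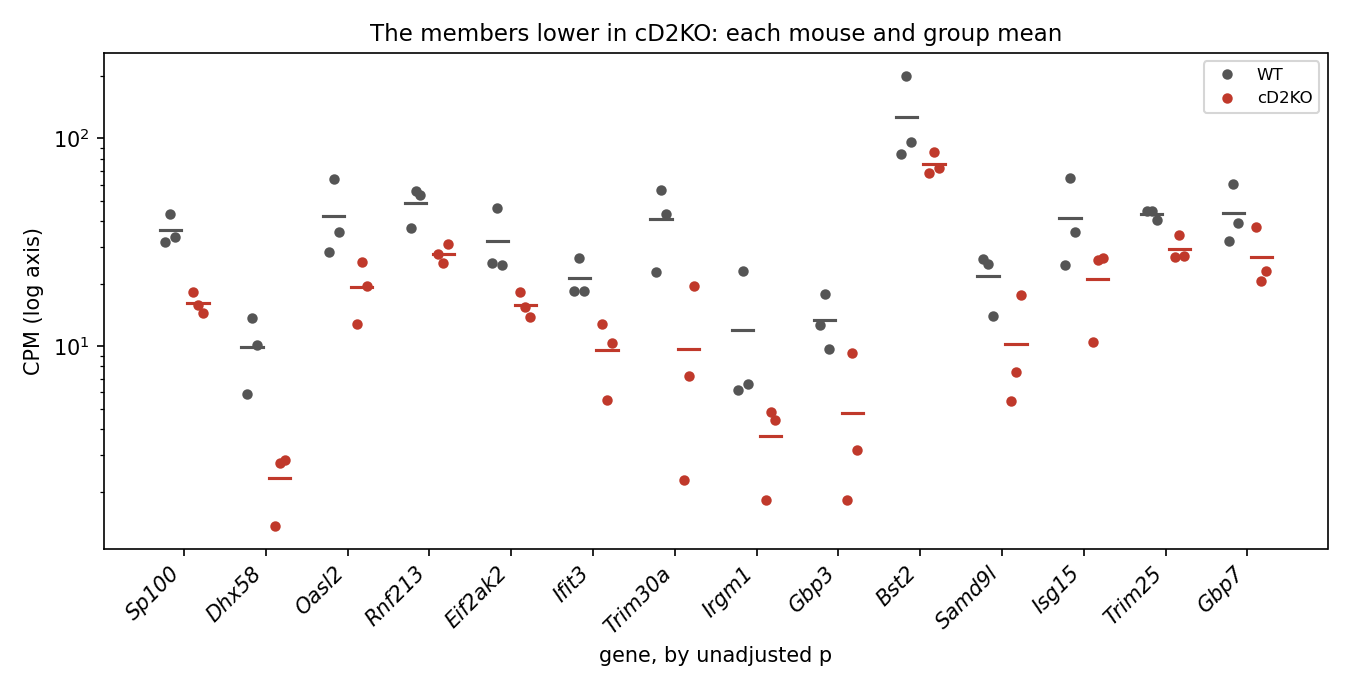
CPM of each mouse (points, log axis) and the mean of each group (lines) for the 14 members lower in cD2KO, ordered by unadjusted p, with WT in grey and cD2KO in red. The groups are separate for 10 genes and overlap for Bst2, Samd9l, Isg15 and Gbp7.

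How firmly single members stood differed. Of the 14, Sp100, Dhx58, Ifit3 and Rnf213 (4) kept an unadjusted p under 0.05 whichever mouse was left out, and Sp100 did so in all 18 alternatives tried. Eif2ak2, Oasl2 and Trim30a kept it in 5 of 6 such fits, and Trim25 in 1. These fits hold fewer mice, so a call can be lost without a smaller fold change. That of Trim25 ran from -0.68 to -0.46 over the 6 fits and that of Trim30a from -3.04 to -1.55. With c129 left out the lower members were Dhx58, Ifit3, Rnf213, Trim30a and Sp100. With c129 and fl125 both left out they were Sp100, Trim30a, Ifit3, Rnf213, Dtx3l and Gbp7, of which Dtx3l was not called with all mice.

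The immune markers moved in the same direction as the members. Of 30 listed, 25 were tested, 8 were lower (32%, against 6.62% of all genes) and none was higher (against 5.34%). All 25 had fold changes below 0 (against 51.9% of all genes), and their median was -1.93. In 20 all cD2KO lay below all WT mice (80%, against 10% of all genes). Ptprc (CD45), the general leukocyte marker, measured 18.3, 69.8 and 24.7 CPM in WT and 4.10, 15.8 and 7.90 CPM in cD2KO (-1.98, SE 0.60, adjusted p = 0.221). Csf1r, the macrophage growth factor receptor, measured 424, 466 and 461 CPM in WT and 10.5, 192 and 270 CPM in cD2KO, with fl125 at 4.54% of the mean of the other cD2KO mice (-1.51, SE 1.04, adjusted p = 0.664). Cd79a, a B cell marker, had 0 counts in every mouse, 3 of the 30 had under 10 counts in all, and 10 of the 30 were at 0 in fl125. Fitted with the mean log2 CPM of the immune markers as a covariate, which leaves 3 residual degrees of freedom, 4 members were lower (Sp100, Ifit3, Dtx3l and Gbp7, 10.3%, against 5.36% of all genes in that fit), Rsad2 was higher (against 7.41%) and the median was -0.22. That score was 6.25, 7.61 and 6.64 in WT and 2.47, 5.69 and 5.67 in cD2KO. The groups did not overlap in it, so this fit cannot tell the score and the genotype apart.

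Within cD2KO the members did not follow the immune markers alike. In fl125, where summed CPM of the immune markers were 9.33% of those in the other cD2KO mice, Zbp1 was at 9.01%, Trim30a at 17.0%, Iigp1 at 21.2% and Rsad2 at 24.0% of the mean of the other cD2KO mice. In the same mouse Sp100 was at 120%, Ifit3 at 160%, Gbp7 at 171%, Dtx3l at 207%, Psmb9 at 226% and Parp9 at 231%. These genes were picked from both ends after their values were seen, and the percentages describe 1 mouse. The part of immune cell RNA in the lower values of the members was not tested.

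**Figure D5:**
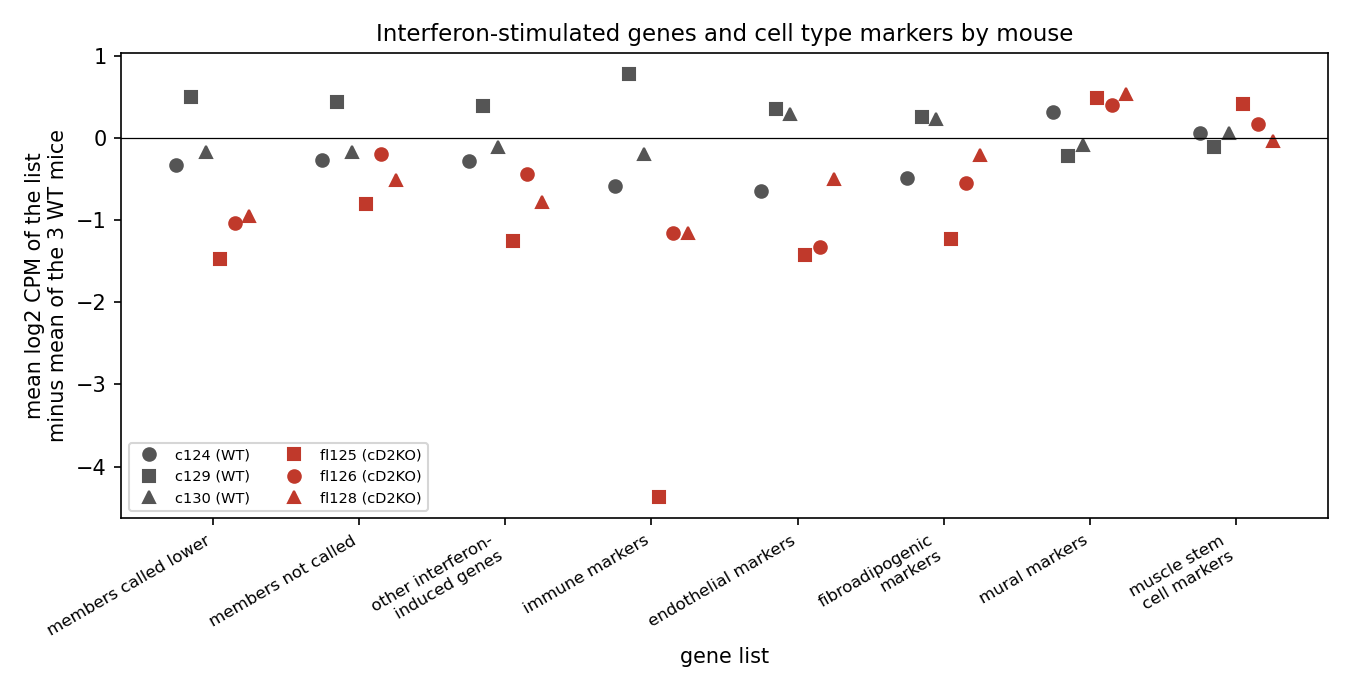
Mean log2 CPM of each gene list in each mouse minus the mean of the 3 WT mice (y axis), for members lower in cD2KO, members not called, other interferon-induced genes and 5 lists of cell type markers (x axis), with WT in grey and cD2KO in red. The cD2KO mouse fl125 is far below the other mice in the immune markers and nearer to them in the members. The mean over the mural markers lies higher in the cD2KO mice, although not every marker of that list does.

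Some markers of other cell types differed between the groups as well. Of 18 endothelial markers tested 8 were lower (44.4%, against 6.62% of all genes) and none higher (against 5.34%). Their median was -1.04, with summed CPM of 637 to 888 in WT and 475 to 572 in cD2KO. Pecam1 measured 8.50, 18.2 and 15.7 CPM against 1.82, 1.72 and 6.32 CPM (-2.04, SE 0.58, adjusted p = 0.151), and Cdh5 12.9, 19.7 and 28.2 CPM against 4.10, 5.50 and 15.5 CPM (-1.24, SE 0.49, adjusted p = 0.344). With the endothelial score as a covariate 1 member was lower (Sp100), which at 2.56% is near the 2.35% of all genes in that fit, none was higher (against 4.08%) and the median was -0.43. Of 10 markers of fibroadipogenic progenitors 3 were lower (30%, against 6.62%), with summed CPM of 4099 to 6631 in WT and 2564 to 5357 in cD2KO. Of 12 mural markers 5 were higher (41.7%, against 5.34%), with 5731 to 9671 in WT and 11477 to 16809 in cD2KO. The 5 were Acta2, Myh11, Tagln, Cnn1 and Mcam, and Acta2 and Myh11 had the highest CPM of them. The other 7 were not called. Of these, Kcnj8 (-0.36), Abcc9 (-0.23) and Pdgfrb (-0.06) had fold changes below 0, and Rgs5 was at 0.00. Of 14 muscle stem cell markers 4 were higher (28.6%, against 5.34%) and 1 was lower (7.14%, against 6.62%), with summed CPM of 1415 to 1883 in WT and 2184 to 2342 in cD2KO. Myf5 was among the higher (0.59, SE 0.26, adjusted p = 0.399) and Pax7 was not called (0.47, SE 0.32, adjusted p = 0.623). The endothelial score was 3.91, 4.91 and 4.85 in WT and 3.13, 3.23 and 4.06 in cD2KO. Its mean differed with genotype (4.56 in WT and 3.47 in cD2KO), but unlike the immune score its groups overlapped, as c124 lay below fl128. The part of these cells in the members' values was not tested.

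The pathway around the members was followed in 6 lists. Of 10 interferon genes, 9 had 0 counts in every mouse, which allows up to 3 counts in each, and Ifng had 4, 13 and 10 counts in WT and 0, 12 and 9 in cD2KO, under the expression minimum. None of these 10 was tested. Among receptors and Janus kinases 3 of 8 tested were lower (37.5%, against 6.62% of all genes) and none was higher (against 5.34%), with a median of -0.40. Ifngr1, the binding chain of the interferon gamma receptor, measured 84.7, 136 and 106 CPM in WT and 62.4, 56.7 and 49.3 CPM in cD2KO (-0.96, SE 0.22, adjusted p = 0.0997). Il10rb, a chain that the receptors of interferon lambda and interleukin-10 share, measured 34.5, 50.1 and 35.9 CPM against 13.7, 18.9 and 16.7 CPM (-1.28, SE 0.29, adjusted p = 0.0997). Ifnar2, of the type I receptor, measured 77.8, 90.6 and 84.9 CPM against 47.4, 60.9 and 70.7 CPM (-0.50, SE 0.21, adjusted p = 0.379). In these 3 genes all cD2KO mice lay below all WT mice, and Il10rb and Ifnar2 share exonic bases with Gm21970 on their strand. Ifnar1, Ifngr2, Jak1, Jak2 and Tyk2 were not called, with fold changes of -0.44 to 0.16, and Ifnlr1 had 2 counts in all.

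A list of 10 tested factors outside the members held Stat3 and IRF factors, and also Nfkb1, Rela, Batf3 and the Irf2-binding proteins Irf2bp1 and Irf2bp2. In this list 4 were lower (40%, against 6.62% of all genes), of which Irf8 and Irf5 are IRF factors, and none was higher (against 5.34%). Irf8, a factor of myeloid cells, measured 22.4, 55.3 and 37.9 CPM against 5.46, 14.1 and 14.5 CPM (-1.73, SE 0.41, adjusted p = 0.102). The others were Irf5 (-2.25), known in macrophages, Batf3 (-1.44), known in dendritic cells, and Irf2bp2 (-0.96). Of 18 genes of nucleic acid sensing 5 were lower (27.8%, against 6.62% of all genes) and none higher (against 5.34%). The lower genes were Unc93b1 (-1.42, adjusted p = 0.0997), which carries Toll-like receptors to endosomes, Tlr7 (-2.99), Tmem173 (STING, -1.23), Ikbke (-1.33) and Samhd1 (-0.49). Tlr7, a receptor for single-stranded RNA, had 0 counts in fl125 and 6 in each of the other cD2KO mice, against 13, 55 and 31 in WT.

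Of 14 inhibitors of interferon signalling 2 were lower (14.3%, against 6.62% of all genes) and none was higher (against 5.34%), with a median of -0.07. The lower genes were Ptpn6 (-1.74), a phosphatase of blood cells, and Socs3 (-0.70). Of 60 other interferon-induced genes tested 14 were lower (23.3%, against 6.62% of all genes) and none was higher (against 5.34%). In 49 the fold change was below 0, 18 had all cD2KO below all WT mice (30%, against 10% of all genes), and the median was -0.59. The 5 with the smallest p were Slfn2 (-2.39, SE 0.51, adjusted p = 0.0992), Oas2 (-1.98, SE 0.44, adjusted p = 0.0997), Cxcl10 (-2.05, SE 0.47, adjusted p = 0.0997), Mndal (-1.02, SE 0.26, adjusted p = 0.123) and Ifi203 (-1.19, SE 0.33, adjusted p = 0.151). Cxcl10, a chemokine that draws T cells, measured 14.4, 39.7 and 21.2 CPM in WT and 4.10, 9.63 and 4.11 CPM in cD2KO. Slfn2 is known in T cells and macrophages, and Mndal and Ifi203 are neighbours that share 37 exonic bases.

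Some members share exonic bases with another gene on the opposite strand, among them Dhx58, Eif2ak2, Irf1, Irf7, Psmb8, Psmb9, Usp18, Ifi35 and Adar, and Irf9 shares bases with Rnf31 on its own strand. Rnf213 shares 1476 bases with A930037H05Rik on the opposite strand. On their own strands Sp100 shares 104 bases with n-R5s215 and Gbp7 637 with Gm43802. A930037H05Rik, n-R5s215 and Gm43802 have no row in the counts. Reads of the Ifit, Oas, Gbp and Irg families, whose members are alike in sequence, may also have been split between genes, so their single values are uncertain.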

How the data were processed

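qMuSC RNA of 3 WT and 3 cD2KO mice was extracted with the RNeasy Mini Kit and sequenced as single libraries. The submitters' processing notes name bcl2fastq, STAR 2.6.0a, HTSeq 0.9.1 and mm10. The authors deposited raw counts of reads per gene, whole numbers without normalization, in 1 table (0 columns of values unmapped). The annotation, the strand setting and how PCR duplicates were treated are not given in the sources used here. Symbols and coordinates came from GENCODE M21 (30934 of 31053 identifiers) and promoters from RefSeq GRCm38.p6.

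A gene was tested if its DESeq2-normalized count averaged above 10, in edgeR 4.0.16 by quasi-likelihood (R 4.3.3, TMM, robust estimation, all 6 mice, no covariate), two-sided, with Benjamini-Hochberg adjustment over all genes tested. Log2 CPM used a prior count of 2. SE is the size of the log2 fold change over the square root of F. P-values rest on the spread between 3 mice in each group. The scripts were tested on simulated data.

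The members, the lists of other genes and the markers were chosen with earlier results of these data known. Every member called is given by mouse, of those not called the member with the smallest p in each role, of each pathway list up to 5 called genes, and the receptors and 6 defining markers by name, apart from a gene that is not reported here and was left out of its list. Other members were named after their values were seen. Alternatives were other scalings, DESeq2 1.42.0, limma 3.58.1 (voom), non-robust estimation, other minima, leaving out each mouse, marker scores as covariates and adjusted p. Leaving out c129 and fl125 together, and the counts of separate groups under other settings, were chosen after seeing the data.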

Additional observations from a re-analysis of the deposited data

How the results depend on the processing

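Under the scaling, test and filter alternatives from 10 to 19 members were lower and none was higher, with medians of -0.82 to -0.59. The 10 were of 23 tested at a minimum mean of 50 (43.5%, against 6.87% of all genes lower and 5.86% higher). The 19 were of 41 with no minimum (46.3%, against 5.76% lower and 5.21% higher). Scaling to the total count gave 17 (43.6%, against 8.19% of all genes), and moved the split over all genes from 770 lower and 621 higher to 953 and 439. Leaving out each mouse gave from 5 (without c129, 12.8% against 3.51% of all genes) to 16 (without c124, 41% against 6.96%) lower members. None was higher (against 4.36% of all genes without c129 and 5.18% without c124), with medians of -0.90 (without c124) to -0.39 (without c129). From 14 (without c129, 35.9% against 14.3% of all genes) to 20 (without c124, 51.3% against 17.1%) members had separate groups. With the immune marker score as a covariate 4 members were lower (10.3%, against 5.36% of all genes), 1 was higher (against 7.41%) and the median was -0.22. With the endothelial score 1 was lower (2.56%, against 2.35% of all genes) and the median was -0.43. Without c129 and fl125, chosen after seeing the data, 6 were lower (15.4%, against 6.37%), 1 was higher (against 8.39%) and the median was -0.15. At an adjusted p under 0.05 or 0.1 the count was 0 in the main edgeR fit, with TMM factors, all mice and the stated minimum, against 14 at an unadjusted p under 0.05. Under 0.05 the DESeq2 Wald test gave 2 members, edgeR with no minimum 3 and edgeR without fl125 1 (Sp100). Under 0.1 these gave 3, 7 and 1, and total count scaling, a minimum mean of 50 and leaving out both c129 and fl125 gave 1 each (Sp100). The share of all genes past the adjusted lines in these alternative fits is not given here, so these counts have no background beside them. Signs turned for Isg15, to 0.10 with the immune and 0.068 with the endothelial score, and for Rsad2, to 1.03 with the immune score and 0.61 without c129 and fl125. The cause was not tested. Over all members and alternatives 547 values kept direction and side, 64 lost the call, 30 gained it, 4 reversed and 40 changed sign with no call. The whole 300-base window held the ISRE core in 17 of 33 members (51.5%, against 3.99% of all genes in the promoter table). No paired analysis was possible because the labels give the mice no replicate numbers, and the numbers 1 to 3 used here only name them. Depth limits members near 1 CPM.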
